A study of Mus musculus with 2 samples.

Results

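The genes described here are the opioid, neurotensin, tachykinin and cholecystokinin receptor genes of the mouse ventral midbrain. They were chosen by name as the 10 rows of the deposited count matrix with the symbols Oprm1, Oprk1, Oprd1, Oprl1, Ntsr1, Ntsr2, Tacr1, Tacr3, Cckar and Cckbr, out of 31252 rows. The choice was made with earlier results of these data known. All 10 averaged 10 counts or more in the 2 libraries, as did 15246 rows in all, and the values below are set against those genes. RNA of the ventral midbrain was sequenced from mice at 2 months of age, in 1 library labelled Ctrl and 1 labelled OE. Both groups carried Cre recombinase from the Slc6a3 (dopamine transporter) locus on an incipient congenic C57BL/6 background. OE mice carried in addition the ROSA26 CAG-S-COUP-TFII allele, from which Cre-expressing cells make the nuclear receptor COUP-TFII (gene Nr2f2). The comparison therefore asks how receptor transcripts differ when COUP-TFII is raised in cells with an active Slc6a3 locus. By the cross in the study's methods, Ctrl and OE littermates had mothers homozygous for a floxed Tfam allele and for a ROSA26 tdTomato reporter. Both groups therefore also inherited 1 copy of each from the mother, and the labels name neither. The labels give the cell type as dopaminergic neurons, but the tissue was the whole ventral midbrain, in which most cells do not express Slc6a3. How many animals gave each library is not stated in the sources used here.

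Neuropeptide receptors are G protein-coupled receptors of the cell surface. Opioid receptors couple mainly to inhibitory G proteins, open GIRK potassium channels and lower firing and transmitter release, whereas neurotensin, tachykinin and cholecystokinin receptors couple mainly to Gq and raise excitability. In the ventral midbrain the dopaminergic neurons are known for Ntsr1, Tacr3 and Oprk1, through which neurotensin, neurokinin B and dynorphin act on them directly. The mu opioid receptor is known mainly from neighbouring GABAergic neurons, and Ntsr2 mainly from astrocytes.

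Promoter sequence is shown for 3 of the receptors, because COUP-TFII is a DNA-binding protein known to bind the motif AGGTCA and its repeats, and because these 3 windows overlap no annotated gene. Of these receptors, Ntsr1 and Tacr3 had higher normalized counts in the OE-labelled library beyond counting error, and Oprd1 had an interval that included 0. Each window holds the 250 bases before the transcription start, from RefSeq on GRCm38.p6, written 5′ to 3′ on the strand of the gene. The window of Ntsr1 is chr2:180499726-180499975 (+ strand), that of Tacr3 is chr3:134828757-134829006 (+ strand) and that of Oprd1 is chr4:132144487-132144736 (- strand). Capitals mark the motif TATAAA.
Ntsr1: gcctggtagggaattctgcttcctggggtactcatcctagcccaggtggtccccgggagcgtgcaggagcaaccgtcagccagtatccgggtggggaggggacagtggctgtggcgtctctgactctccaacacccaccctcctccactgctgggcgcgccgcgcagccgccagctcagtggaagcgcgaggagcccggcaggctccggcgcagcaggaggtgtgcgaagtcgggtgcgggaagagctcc
Tacr3: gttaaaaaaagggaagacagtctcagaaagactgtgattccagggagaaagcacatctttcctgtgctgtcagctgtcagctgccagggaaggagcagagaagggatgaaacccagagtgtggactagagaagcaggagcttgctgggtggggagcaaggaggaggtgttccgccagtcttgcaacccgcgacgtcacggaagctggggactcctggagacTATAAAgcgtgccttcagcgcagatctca
Oprd1: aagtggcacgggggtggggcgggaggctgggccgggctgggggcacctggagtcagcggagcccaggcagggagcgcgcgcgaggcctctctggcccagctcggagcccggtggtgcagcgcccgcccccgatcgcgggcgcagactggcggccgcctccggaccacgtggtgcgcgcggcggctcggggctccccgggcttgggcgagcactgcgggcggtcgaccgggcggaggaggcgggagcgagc

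The RefSeq promoter table held 12 promoters for 8 of the 10 receptor genes. None of the 12 contained AGGTCA on either strand, against 14.0% of all 32851 promoters of the table. A direct repeat of AGGTCA with 1 base between the copies contains that motif, so its absence from the 12 follows and is no separate result. It was found in 0.033% of all promoters. TATAAA on either strand, searched for after the values were seen, was present in 2 of the 12 and in 12.4% of all promoters. These were the window of Tacr3, where it started 29 bases before the transcription start, and a window of Oprl1. The windows of Ntsr1, Tacr3 and Oprd1 held 68.4%, 54.4% and 80.0% G and C, against a median of 52.4% over all promoters. These matches describe letters in short windows and do not show binding. The windows at chr10:6788320-6788569 and chr10:6788326-6788575, both of Oprm1, overlap, so the 12 are not all separate sequences. Whether 0 of so few windows differs from the share over all promoters was not tested.

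The deposited values summed to 16984336 counts in the Ctrl-labelled library and 21326632 in the OE-labelled library, and 18346 and 18493 rows had a count. Nr2f2, the gene raised in OE mice, went against the labels, with 637 counts in the Ctrl-labelled library and 377 in the OE-labelled library (log2 fold change -1.07, 95% counting interval -1.26 to -0.88). Whether transcripts of the ROSA26 allele are counted in that row is not given in the sources used here. The libraries are therefore called by their labels throughout, and if the labels were crossed, every direction given here would turn, so that the receptors counted as higher in the OE-labelled library would be the lower ones. Fold changes are from the OE-labelled library over the Ctrl-labelled library, on log2 of normalized counts plus 0.5, after TMM scaling, a correction for library size and composition. With 1 library per group there is no replicate check and no test between genotypes. The intervals are exact 95% (Clopper-Pearson) intervals that cover counting error only and leave out the spread between animals. In addition, fewer cells of a type and less RNA per cell cannot be told apart in tissue RNA.

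Ntsr1, the high-affinity neurotensin receptor, and Tacr3, the neurokinin B receptor, each had more than 2-fold more normalized counts in the OE-labelled library, and Oprk1, the kappa opioid receptor, had 1.84-fold more. Cckar, a cholecystokinin receptor, was 1.69-fold higher on far fewer counts. Oprl1, Ntsr2, Oprd1 and Tacr1 had nearly equal levels in both libraries or counting intervals that included no difference. No receptor had a counting interval below 0.

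Genes past a log2 fold change of 0.2, the rule of the study's methods, were counted first. The receptors and the gene lists below were chosen with earlier results of these data known. Counts set beside shares or lists are therefore descriptions, not tests. By that rule 6 of 10 receptors were higher in the OE-labelled library, against 17.9% of all tested genes, and 0 of 10 were lower, against 16.6%. At a log2 fold change of 1, 2 of 10 were higher, against 1.53% of all tested genes, and 0 were lower, against 1.28%. A counting interval wholly above 0 was found for 4 of 10 receptors, against 15.8%, and one wholly below 0 for none, against 14.4%. The median log2 fold change of the 10 receptors was 0.33, beside 0.0046 over all tested genes. With a minimum mean of 100 counts, which drops Oprm1 and Cckar, it was 0.13. At that minimum 4 receptors and 1522 genes in all were higher past 0.2, and 0 receptors and 1377 genes were lower. The share over all genes was not computed there, so these 4 cannot be set against one. The 10 receptors were chosen as families and differ among themselves, so the median describes none of them well.

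**Figure D1:**
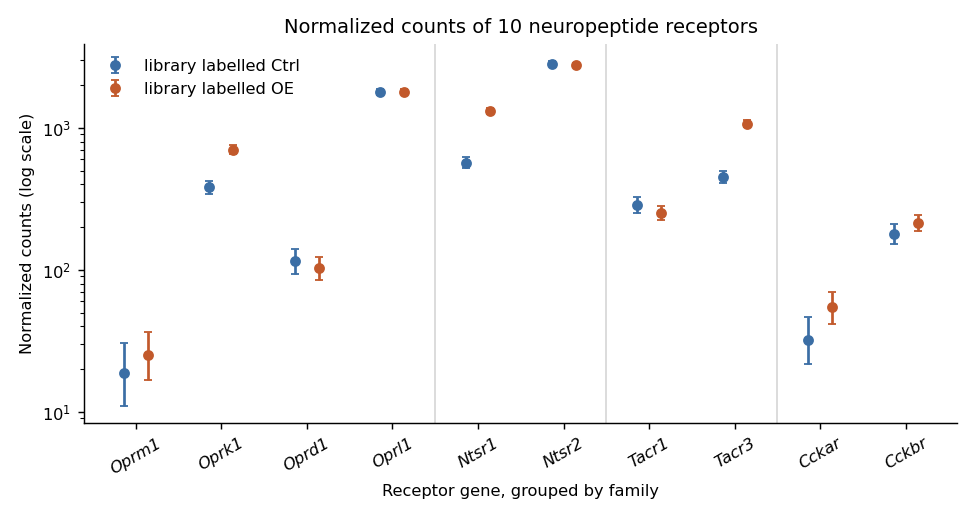
Normalized counts of the 10 receptor genes (log axis) in the Ctrl-labelled library and the OE-labelled library, 1 library each, with 95% counting intervals. Ntsr1 (568 and 1311), Tacr3 (454 and 1070) and Oprk1 (382 and 702.5) are the abundant receptors whose values separate, while the paired points of Ntsr2 and of Oprl1 are at nearly the same height.

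Among opioid receptors, Oprk1 carried the difference. Oprk1 encodes the kappa receptor, the target of dynorphin (chromosome 1, 5588466 to 5606131, + strand, GENCODE M21 on GRCm38). It had 343 counts in the Ctrl-labelled library and 783 in the OE-labelled library, or 382 and 702.5 normalized counts. The log2 fold change was 0.88 (interval 0.69 to 1.06), higher than 98% of all tested genes. The levels were far apart beside their counting error.

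Oprl1, the receptor for nociceptin (chromosome 2, 181715016 to 181720985, + strand), was the most abundant opioid receptor gene. Its 1608 and 2004 counts came to 1792 and 1798 normalized counts, a log2 fold change of 0.0044 (interval -0.091 to 0.10). The depth behind Oprl1 leaves little room for a difference between these libraries. Oprd1, the delta receptor, which binds enkephalins (chromosome 4, 132110726 to 132144486, - strand), had 103 and 114 counts, or 115 and 102 normalized counts. Its log2 fold change of -0.17 had an interval from -0.56 to 0.23, so neither direction was resolved.

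Oprm1, the mu receptor and main target of morphine (chromosome 10, 6758506 to 7038198, + strand), had only 17 and 28 counts. These were 18.9 and 25.1 normalized counts, and the log2 fold change of 0.40 had an interval from -0.51 to 1.37. A difference in Oprm1 was not detectable at this depth. Exons of Oprm1 also overlap those of Ipcef1 on the opposite strand (211 and 298 counts). The kit kept strand, but whether counting used it is not given in the sources used here.

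Setting 2 receptors against each other within a library needs no scaling. For each 100 counts of Oprl1 the Ctrl-labelled library held 21.3 counts of Oprk1 and the OE-labelled library held 39.1, a log2 change in the ratio of 0.87 (interval 0.66 to 1.08). Per 100 counts of Oprd1 there were 333 and 687 counts of Oprk1 (log2 change 1.04, interval 0.60 to 1.49). Thus the balance between kappa and the nociceptin and delta receptors differed between the libraries beyond counting error. The ratio of Oprk1 to Oprm1 (log2 change 0.47, interval -0.51 to 1.41) and that of Oprd1 to Oprl1 (-0.17, interval -0.58 to 0.24) did not. Altogether 18 such ratios were computed, and their intervals are not adjusted for that number.

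The pair of neurotensin receptors went apart. Ntsr1 (chromosome 2, 180499976 to 180544980, + strand), whose promoter is printed above, had 510 counts in the Ctrl-labelled library and 1461 in the OE-labelled library, or 568 and 1311 normalized counts. This was a 2.31-fold higher level (log2 fold change 1.20, interval 1.06 to 1.35), and 156 of the 15246 tested genes had a larger one. Ntsr2, the low-affinity receptor (chromosome 12, 16653382 to 16660227, + strand), had 2538 and 3090 counts, or 2829 and 2772 normalized counts. Its log2 fold change was -0.029 (interval -0.11 to 0.047). Ntsr2 thus had the most counts of the 10 receptors and nearly the same level in both libraries. Per 100 counts of Ntsr2 there were 20.1 counts of Ntsr1 in the Ctrl-labelled library and 47.3 in the OE-labelled library, a log2 change in the ratio of 1.23 (interval 1.07 to 1.40). Sort1 and Sorl1 encode sorting receptors that also bind neurotensin and are unrelated to the G protein-coupled pair. Sort1 had 6115 and 6462 counts (log2 fold change -0.23, interval -0.28 to -0.18), and Sorl1 had 2825 and 3073 (-0.19, interval -0.27 to -0.12).

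Tachykinin receptors showed the same kind of split. Tacr3, the receptor preferred by neurokinin B (chromosome 3, 134829007 to 134934579, + strand), had 407 counts in the Ctrl-labelled library and 1193 in the OE-labelled library, or 454 and 1070 normalized counts. Its 2.36-fold higher level (log2 fold change 1.24, interval 1.07 to 1.40) was the largest of the 10 receptors, and 142 of all tested genes had a larger one. Tacr1, the receptor preferred by substance P (chromosome 6, 82402334 to 82560104, + strand), had 257 and 280 counts, or 286 and 251 normalized counts. Its log2 fold change of -0.19 (interval -0.44 to 0.060) was just short of the threshold for lower genes. Per 100 counts of Tacr1 there were 158 and 426 counts of Tacr3 (log2 change 1.43, interval 1.13 to 1.73), the largest change of the 18 ratios. Tacr2, the receptor preferred by neurokinin A, had 0 counts in the Ctrl-labelled library and 1 in the OE-labelled library, too few to compare.

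Both cholecystokinin receptors had positive log2 fold changes, with wide intervals. Cckar, which needs sulfated cholecystokinin (chromosome 5, 53697776 to 53707705, - strand), had 29 and 61 counts, or 32.3 and 54.7 normalized counts (log2 fold change 0.75, interval 0.099 to 1.45). Cckbr, the main brain receptor, which also binds gastrin (chromosome 7, 105425731 to 105470898, + strand), had 161 and 239 counts, or 179 and 214 normalized counts. Its log2 fold change of 0.26 lay past the threshold of 0.2, but its interval ran from -0.038 to 0.55. The ratio of Cckar to Cckbr was 18.0 per 100 in the Ctrl-labelled library and 25.5 in the OE-labelled library, a change within counting error (log2 0.50, interval -0.23 to 1.26).

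**Figure D2:**
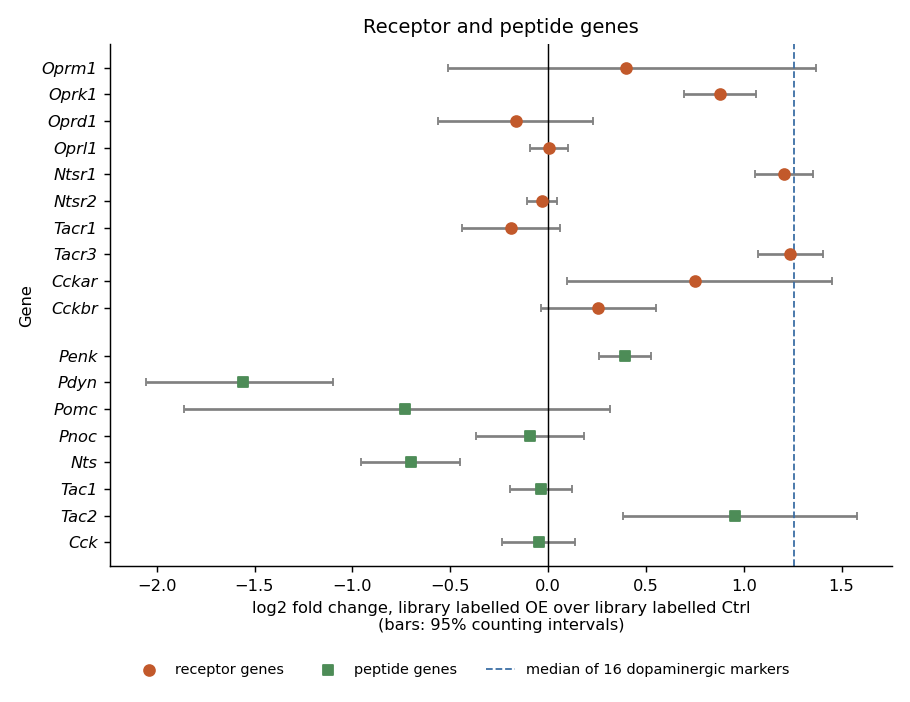
Log2 fold changes of the 10 receptor genes (circles) and of 8 genes of their peptides (squares), with 95% counting intervals; the dashed line is the median of 16 dopaminergic neuron markers, 1.26. Intervals of Oprk1, Ntsr1, Tacr3 and Cckar lie above 0, as do those of Penk and Tac2, and those of Pdyn and Nts lie below it.

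Levels of different receptors were compared per kilobase, using the median length of the annotated transcripts of each gene (GENCODE M21). In the Ctrl-labelled library the order was Ntsr2 (2752 normalized counts per kilobase), Oprl1 (780), Ntsr1 (175), Oprk1 (134), Tacr3 (121), Cckbr (92.1), Tacr1 (58.1), Oprd1 (28.6), Oprm1 (13.2) and Cckar (11.03). Of neighbours in this order, Oprk1 and Tacr3, and likewise Oprm1 and Cckar, had overlapping counting intervals. In the OE-labelled library the first 3 places were the same at 2697, 783 and 403 per kilobase, while Tacr3 (284) stood above Oprk1 (247). Cckbr (110), Tacr1 (50.9) and Oprd1 (25.4) kept their places, and Cckar (18.7) and Oprm1 (17.4) again overlapped. The interval of Oprd1 there overlapped those of Cckar and Oprm1, so its place above them was not resolved. Hence the receptors with differing levels were neither the most nor the least abundant, apart from Cckar. The order depends on the transcript taken: with the longest transcript of each gene, Tacr3 stood above Oprk1 and Cckar above Oprm1 in the Ctrl-labelled library too, and Ntsr2 came to 1026 per kilobase there.

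**Figure D3:**
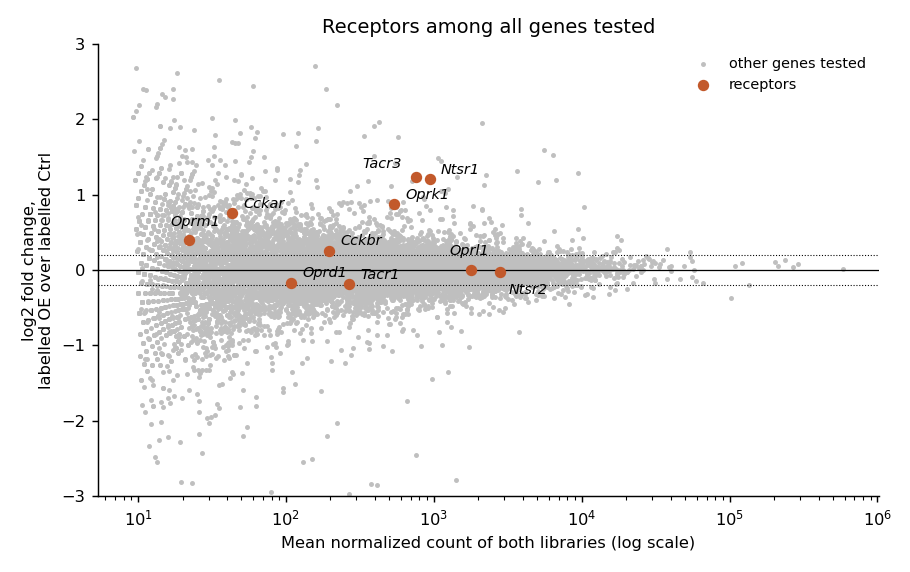
Log2 fold change against mean normalized count (log axis) for all tested genes, with the 10 receptors named; the dotted lines mark log2 0.2 in each direction and 38 genes lie outside the vertical range. Ntsr1 and Tacr3 sit higher than 99.0% and 99.1% of all tested genes, while Ntsr2 and Oprl1 sit near 0.

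Markers of dopaminergic neurons moved with these receptors. All 16 listed markers were higher in the OE-labelled library, with log2 fold changes from 0.75 to 2.00 (median 1.26), and their summed level was 29051 normalized counts in the Ctrl-labelled library and 68853 in the OE-labelled library. Th, the rate-limiting enzyme of dopamine synthesis, had 2499 and 9354 counts (log2 fold change 1.59, interval 1.53 to 1.66). Slc6a3, the dopamine transporter that also drives Cre, had 4955 and 15033 (1.29, interval 1.24 to 1.33). The log2 fold changes of Tacr3 and Ntsr1 fell inside the range of these markers, above 8 and 7 of the 16. Oprk1 lay above 3 of them, Cckar above 1, and the other 6 receptors lay below all 16.

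When receptor counts were divided by the summed counts of the 16 markers in the same library, the differences in Ntsr1 and Tacr3 were no longer larger than counting error. Ntsr1 had 19.6 counts per 1000 marker counts in the Ctrl-labelled library and 19.0 in the OE-labelled library (log2 change -0.040, interval -0.19 to 0.11). Tacr3 had 15.6 and 15.5 (-0.0066, interval -0.17 to 0.16). Oprk1 was lower on this scale, at 13.2 and 10.2 (-0.37, interval -0.55 to -0.18). Cckar at 1.11 and 0.795 (-0.49, interval -1.15 to 0.21) and Oprm1 at 0.652 and 0.365 (-0.84, interval -1.76 to 0.12) were not resolved. The other 5 receptors had log2 changes from -1.43 (Tacr1) to -0.99 (Cckbr) on this scale. This scale was chosen after the values were seen.

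Single dopaminergic genes as the reference gave values that depended on the gene. Per 100 counts of Slc6a3 there were 10.3 and 9.72 counts of Ntsr1 (log2 change -0.083, interval -0.24 to 0.073), 8.21 and 7.94 of Tacr3 (-0.050, interval -0.22 to 0.12), and 6.92 and 5.21 of Oprk1 (-0.41, interval -0.60 to -0.22). Against Th all 3 receptors were lower in the OE-labelled library, by log2 changes of -0.39 for Ntsr1, -0.35 for Tacr3 and -0.71 for Oprk1, with intervals below 0. Set against each other, Ntsr1 and Tacr3 had ratios that were not resolved as different (125 and 122 per 100, log2 change -0.033, interval -0.26 to 0.19). Both were higher relative to Oprk1 in the OE-labelled library, with log2 changes of 0.33 (interval 0.088 to 0.57) for Ntsr1 and 0.36 (interval 0.11 to 0.61) for Tacr3.

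**Figure D4:**
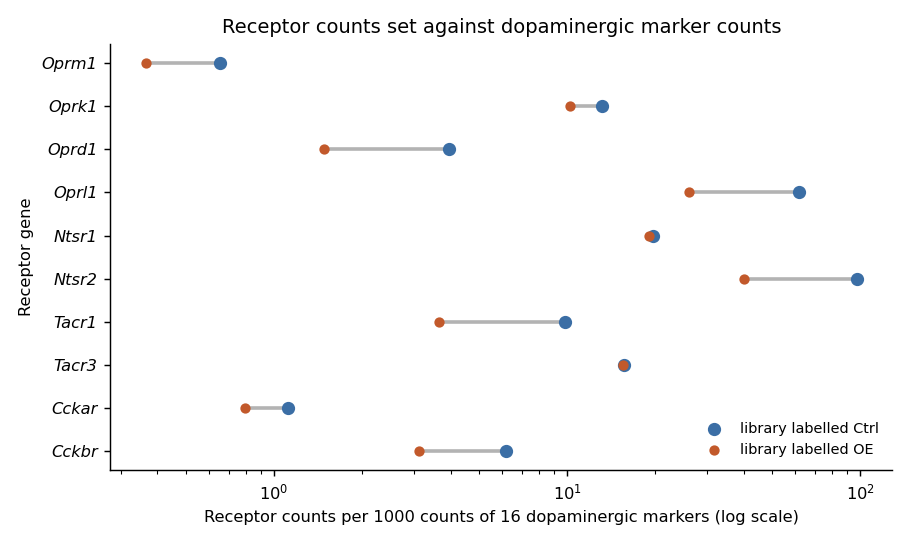
Receptor counts per 1000 summed counts of 16 dopaminergic neuron markers (log axis) in the Ctrl-labelled library and the OE-labelled library. Ntsr1 (19.6 and 19.0) and Tacr3 (15.6 and 15.5) have counting intervals of the change that include 0 on this scale, and Oprk1 (13.2 and 10.2) is lower in the OE-labelled library.

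Markers of neighbouring tissue and of other cells also differed between the libraries. Of 12 thalamus markers, 10 were lower past the threshold in the OE-labelled library (median log2 fold change -1.48, summed level 21938 and 14340 normalized counts), and Gbx2 had 30 counts in the Ctrl-labelled library and 0 in the OE-labelled library. Of the 11 markers of hypothalamus, mammillary and subthalamic nuclei, 8 were tested, 4 higher and 3 lower, with Avp at 80.6 and 1 counts and Oxt at 48.4 and 2. Of 7 habenula markers 6 were tested, 4 higher and 2 lower. The higher ones were Chrnb3, Chrnb4, Chrna3 and Pou4f1 (89 and 167 counts), and the lower ones Slc17a7 (231 and 50) and Gpr151 (11 and 9). The nicotinic receptor subunits among them are also known from dopaminergic neurons, and the source of these differences was not tested. The 4 GABAergic markers summed to 31432 and 31263 normalized counts, with 1 higher and 0 lower. Astrocyte markers, which stand for the cells best known for Ntsr2, summed to 85752 and 80453, with 0 of 10 higher and 1 lower. Oligodendrocyte markers had a median of -0.26, with 6 of 9 lower, microglia markers -0.11, with 3 of 8 lower, and endothelial markers -0.22, with 3 of 5 lower. Pan-neuronal markers had a median of 0.096, with 2 of 7 higher and 1 lower, and 4 of 5 serotonergic markers were tested, with 2 higher and a median of 0.74. That median rests on Tph2 (19 and 63 counts) and Slc6a4 (1 and 24), and was 0.093 with any count as the minimum and 0.034, with 0 higher, at a minimum mean of 100 counts. Glial and GABAergic markers at these levels show that the RNA came from mixed tissue, not from dopaminergic neurons alone. The part of thalamic and other markers in the receptor differences was not tested, and with 1 library per group the genotype, the animal and the piece of tissue taken cannot be told apart.

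Genes of the peptides that these receptors bind differed in both directions. Penk, the precursor of enkephalins, had 763 and 1244 counts (log2 fold change 0.39, interval 0.26 to 0.52). Pdyn, the precursor of dynorphin and so of the Oprk1 ligand, had 129 and 54 (-1.56, interval -2.06 to -1.10). Oprk1 and Pdyn therefore differed in opposite directions. Pomc, the precursor of beta-endorphin, had 19 and 14 counts (-0.73, interval -1.86 to 0.32), and Pnoc, the precursor of nociceptin, had 205 and 239 (-0.092, interval -0.37 to 0.18). Of these 4 opioid peptide genes, 1 was higher and 2 were lower past the threshold, with a median of -0.41. With a minimum mean of 100 counts, which leaves Penk and Pnoc, the median turned to 0.15, with 1 higher and 0 lower.

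Nts, the neurotensin precursor, was lower in the OE-labelled library, with 301 and 230 counts (log2 fold change -0.70, interval -0.96 to -0.45), opposite to Ntsr1. Tac2, the precursor of neurokinin B, had 35 and 85 counts (0.96, interval 0.38 to 1.58), the same direction as its receptor Tacr3. Tac1, the precursor of substance P and neurokinin A, had 604 and 732 (-0.036, interval -0.19 to 0.12), and Cck had 431 and 518 (-0.048, interval -0.24 to 0.14). Tac4 had no count in either library. Among the neurotensin, tachykinin and cholecystokinin peptide genes, 1 of the 4 tested was higher and 1 was lower past the threshold, with a median of -0.042.

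The signalling partners of these receptors were mostly near 0. Of 8 G protein alpha subunit genes, 2 were higher and 0 lower past the threshold, with a median log2 fold change of 0.071. The abundant ones had values of 0.068 (Gnao1), -0.015 (Gnai1), 0.12 (Gnaq) and -0.026 (Gnai2), and Gna14 was highest at 0.65 on 7 and 14 counts. Receptor kinases and arrestins, which switch receptors off, had a median of 0.059 over 7 tested genes, with Grk6 the only one past the threshold at 0.24 and Grk4 lowest at -0.10. The GIRK channel subunits, through which opioid receptors quiet neurons, split evenly. Kcnj6 had 197 and 454 counts (0.89, interval 0.65 to 1.14) and Kcnj5 had 91 and 148 (0.39, interval 0.0021 to 0.78). Kcnj3 had 358 and 337 (-0.40), and Kcnj9 had 825 and 719 (-0.51, interval -0.66 to -0.37). Kcnj6 encodes the subunit known for dopaminergic neurons, and whether its difference arose in those cells was not tested.

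Other neuropeptide receptors gave a comparison of like genes. Of 38 listed, 30 were tested, 10 were higher and 12 lower past the threshold, and their median was 0.028, beside 6 of 10, 0 of 10 and 0.33 for the receptors above. The sign of this median was not stable, at -0.11 with any count as the minimum (11 higher, 18 lower) and -0.0037 with a minimum mean of 100 counts (5 higher, 5 lower). Their counting intervals lay above 0 for 5 and below 0 for 5. The highest was Calcr, the calcitonin receptor, with 24 and 56 counts (log2 fold change 0.90). The lowest was Vipr2, a receptor for vasoactive intestinal peptide and PACAP, with 199 and 42 counts (-2.54, interval -3.07 to -2.07). Adcyap1r1, the PACAP receptor and the most abundant, had 5500 and 6816 counts (-0.0037), Sstr1 had 0.38 and Crhr1 0.46 on the log2 scale. None of the 30 had a log2 fold change as high as that of Ntsr1 or Tacr3.

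**Figure D5:**
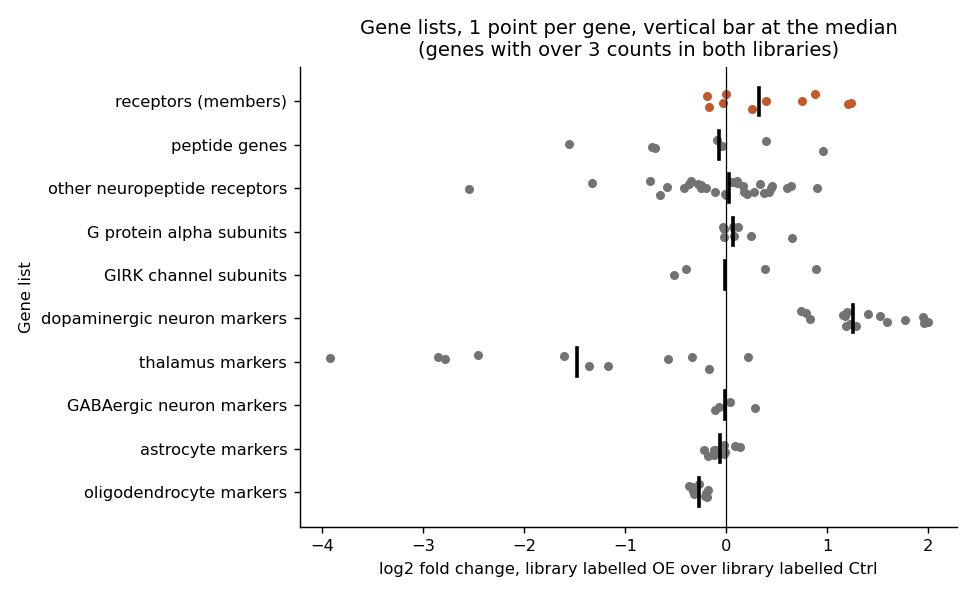
Log2 fold changes by gene list, 1 point per gene with over 3 counts in both libraries, with a vertical bar at the median. The receptors range from -0.19 to 1.24, inside or below the range of dopaminergic neuron markers (0.75 to 2.00), and thalamus markers (median -1.48, Gbx2 included) lie lowest.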

How the data were processed

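The authors dissected and froze ventral midbrain, and a company prepared stranded mRNA libraries (TruSeq), sequenced paired 50-base reads and ran its own RNAv9 pipeline. The deposited matrix holds RSEM expected counts per gene symbol, not normalized by the authors, and mm10 is named in the submitters' processing notes. The aligner, the annotation and the RSEM version are not given in the sources used here. Values were whole for 95.4% of rows and for all 10 receptors, and 2 gene names occurred in more than 1 row. Groups came from sample titles.

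TMM factors (edgeR 4.0.16 in R 4.3.3) were computed on the expected counts as deposited. Counts were rounded for the intervals, the odds ratios and the DESeq2 size factors. Normalized counts are counts at a common effective library size, and log2 fold changes used a pseudocount of 0.5 and genes that averaged 10 counts or more. Intervals at 95% come from the split of both counts (scipy 1.17.1), and ratios of 2 genes from exact odds ratios. They cover counting error only, and no model test or p-value was possible with 1 library per group. The calculation was tested on simulated counts that held counting error only. That test therefore does not cover the spread between animals or pieces of tissue. Alternatives were scaling by total counts, upper quartile and DESeq2 (1.42.0) size factors, a pseudocount of 5, unrounded counts, other count minimums and thresholds, and the longest transcript. Within-library ratios, marker scaling and the TATAAA search were added after the values were seen.

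Every receptor was named, as was every peptide gene, and for each other list of pathway genes the highest, the lowest and up to 4 of the most abundant genes, or fewer. The receptors and lists were chosen with earlier results of these data known. GENCODE M21 (GRCm38) gave positions and lengths, and RefSeq (GRCm38.p6) gave promoters. Protein sequences were not used here.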

Additional observations from a re-analysis of the deposited data

How the results depend on the processing

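Scaling by total counts, the upper quartile or DESeq2 size factors, a pseudocount of 5 and unrounded counts kept the direction of the receptors' log2 fold changes except for Oprl1, whose value lay near 0 (-0.011 to 0.018). Ntsr1 ranged from 1.19 to 1.22, Tacr3 from 1.22 to 1.25, Oprk1 from 0.86 to 0.89 and Cckar from 0.68 to 0.76, and the median of all genes from -0.011 to 0.018. With scaling by total counts 1 receptor (Tacr1, -0.20) passed the threshold for lower genes. At a threshold of log2 1, 2 receptors were higher, with 233 genes higher and 195 lower in all. With any count as the minimum, 4513 genes were higher and 4497 lower, and with a mean of at least 100 counts 1522 and 1377, since other numbers of genes were tested. That minimum dropped Oprm1 and Cckar, so the median of the receptors became 0.13, and it dropped Pomc and Pdyn, so the median of the opioid peptide genes turned to 0.15.

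No paired analysis was possible because there is only 1 library a group, and none was left out for the same reason. Depth limited Oprm1, Cckar and Oprd1 most, while Ntsr2 and Oprl1 had the narrowest intervals. No value here measures the spread between animals.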

Other observations

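All 7 listed genes of peptide processing, which are enzymes, a chaperone (Scg5) and an inhibitor (Pcsk1n), were tested, with a median log2 fold change of 0.085, 3 higher and 1 lower past 0.2. Pcsk1n, which encodes an inhibitor of prohormone convertase 1, was highest, with 1236 counts in the Ctrl-labelled library and 3346 in the OE-labelled library (log2 fold change 1.12, counting interval 1.03 to 1.22). Pam, which amidates peptides such as cholecystokinin and substance P, had 3789 and 5729 counts (0.28), and Cpd was lowest at -0.24. Cpe, the most abundant, had a value of -0.12.

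Peptidases that break down neuropeptides had a median of 0.069 over 13 genes, with 1 higher and 3 lower past 0.2. Mme, which encodes neprilysin and cleaves enkephalins and substance P, was highest at 0.22 (310 and 448 counts). Dpp4 was lowest, with 31 and 17 counts (-1.15).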
